A study of Homo sapiens with 4 samples.

Results

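Glycolysis and hypoxia target genes were examined in H1299, a human lung cancer line, with and without targeting of TTC28. The set holds 39 genes of the 58735 in the deposited table, picked by gene symbol: 25 of glycolysis, lactate transport and pyruvate entry into mitochondria, and 14 of the hypoxia pathway and its targets outside glycolysis. All 39 symbols were found, each in 1 row. RNA was sequenced from 2 knockout libraries, made from H1299 cells after CRISPR/Cas9 targeting of TTC28, and 2 wild-type libraries, from cells of the same line. All 4 are labelled untreated and, per the labels, grew in RPMI1640 with serum in a humidified incubator with added CO2; no oxygen level is given, so the hypoxia genes were measured under routine culture. The labels do not say whether the knockout line is 1 clone or a pool, or whether replicates came from separate cultures, so p-values measure only the spread between these libraries.

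Glycolysis splits glucose into pyruvate through a chain of enzymes, first spending ATP on hexose phosphates and then recovering ATP and NADH from triose phosphates. Pyruvate is then reduced to lactate and exported, or enters mitochondria through pyruvate dehydrogenase, and tumour cells often favour lactate even with oxygen present. Most of these genes are direct targets of HIF-1, a transcription factor whose alpha subunit is marked for destruction by oxygen-dependent prolyl hydroxylases, and many are also described as targets of MYC.

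Counts in the libraries totalled 28885443 and 25120500 in knockout replicates 1 and 2, against 25808423 and 27043491 in wild-type replicates 1 and 2. The TTC28 transcript was at 2.96 and 2.99 FPKM in the knockout libraries, against 4.88 and 5.44 FPKM in the wild-type libraries, so it was lower but still present; FPKM divides a gene's fragments by its summed exon length and by an effective library size. Mitochondrially encoded genes took 8.61% and 10.2% of the counts in the knockout libraries, against 6.07% and 5.87% in the wild-type libraries; their part in the results below was not tested beyond leaving them out of the totals. The epithelial and mesenchymal markers KRT8, KRT18 and VIM were present in every library. Markers of blood, endothelial, fibroblast and differentiated lung cells were all under 0.5 FPKM in every library.

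Of the glycolysis and hypoxia genes abundant enough to test, more were lower than higher in the knockout, and all of these differed by less than 2-fold. Testing was limited to genes that reached 1 FPKM in 2 or more libraries, and 31 of the 39 did. Of the 31, 8 rose, 13 fell and 10 did not pass edgeR's quasi-likelihood test. The threshold was an adjusted p of 0.05, with the Benjamini-Hochberg adjustment made over all 13079 tested genes. Those 21 calls are 67.7% of the 31, where 50.3% of all tested genes were called, 25.1% higher and 25.2% lower. Glycolysis supplied 22 of the tested genes, 6 of them higher, 9 lower and 7 short of the threshold. The median log2 fold change was -0.01 over the 31 genes and 0.00 over all tested genes. In 24 of the 31 (77.4%) the FPKM ranges of knockout and wild type lay apart, against 75.5% of all tested genes, so a gap between the groups was nearly as common over all genes. The 8 genes under the filter were ALDOC, PDK1, PDK3, EPAS1, EGLN3, CA9, NDRG1 and ANKRD37. When each library's length-scaled values were set to the same sum (a TPM scale), the overall median moved by -0.17 and 4 of the 31 rose and 15 fell; of all called genes, 26.6% were then higher against 49.9% in the reported fit.

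**Figure D1:**
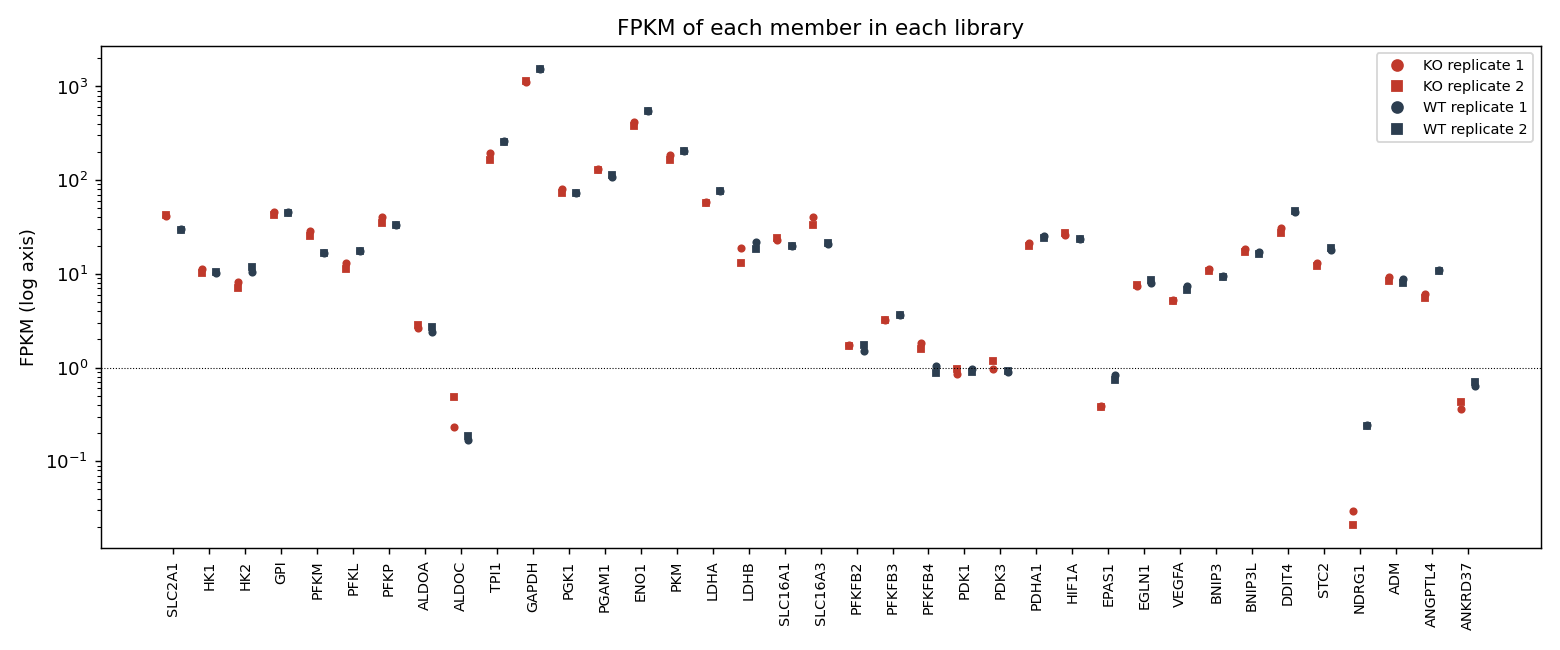
FPKM (log axis) of each of the 37 genes listed above 0 in every library; red points are knockout libraries, dark points wild-type libraries, circles replicate 1 and squares replicate 2, and the dotted line marks 1 FPKM. Levels span from NDRG1, at 0.0292 and 0.0208 FPKM in the knockout libraries, to GAPDH, at 1125.6 and 1146.9 FPKM in the same libraries.

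The glucose importer gene SLC2A1 rose, the hexokinase gene HK2 fell, and HK1 and GPI did not pass the test. SLC2A1 encodes GLUT1, the main glucose importer of many tumours, and was at 41.8 and 42.5 FPKM in the knockout libraries, against 29.8 and 29.4 FPKM in the wild-type libraries. Both knockout values lay above both wild-type values, and SLC2A1 rose by a log2 fold change of 0.51 (SE 0.0600, edgeR's quasi-likelihood test, adjusted p = 1.4e-05). HK2, the inducible hexokinase that sits on mitochondria and is raised in many cancers, was at 8.15 and 7.06 FPKM in the knockout libraries and 10.5 and 11.7 FPKM in the wild-type libraries. HK2 fell by 0.54 on the log2 scale (SE 0.0832, edgeR adjusted p = 0.000141), with no overlap of the groups. HK1, the housekeeping hexokinase, was at 11.2 and 10.2 FPKM in the knockout libraries and 10.1 and 10.6 FPKM in the wild-type libraries, which overlap (log2 fold change 0.06, 95% interval -0.09 to 0.21). As a share of the summed FPKM of both hexokinases, HK2 took 42.1% and 40.9% in the knockout libraries, against 51.0% and 52.5% in the wild-type libraries. The ratio of HK1 to HK2 FPKM was 1.38 and 1.45 in the knockout libraries, against 0.96 and 0.904 in the wild-type libraries. The wild-type levels are too close to rank these genes, because FPKM depends on the length used for each gene. GPI, which turns glucose 6-phosphate into fructose 6-phosphate, was at 46.1 and 42.8 FPKM in the knockout libraries and 45.4 and 44.4 FPKM in the wild-type libraries (log2 fold change -0.01, 95% interval -0.15 to 0.13).

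Phosphofructokinase, the committed step of glycolysis, showed opposite changes in 2 of its 3 subunit genes. PFKM, the muscle-type subunit, was at 28.7 and 25.5 FPKM in the knockout libraries and 16.8 FPKM in both wild-type libraries, and rose by a log2 fold change of 0.69 (SE 0.0671, edgeR adjusted p = 2.88e-06). PFKL, the liver-type subunit, was at 13.0 and 11.3 FPKM in the knockout libraries and 17.7 FPKM in both wild-type libraries, and fell by 0.54 on the log2 scale (SE 0.0703, edgeR adjusted p = 3.39e-05). Neither pair of groups overlapped. PFKP, the platelet-type subunit and the most abundant of the 3, was at 40.2 and 34.5 FPKM in the knockout libraries and 33.6 and 33.4 FPKM in the wild-type libraries. Its log2 fold change was 0.16 (95% interval 0.00 to 0.32, edgeR adjusted p = 0.0801), and on the TPM scale it was -0.01 (adjusted p = 0.96). Without knockout replicate 1 it was 0.05 (adjusted p = 0.544), and without knockout replicate 2 it was 0.26 (adjusted p = 0.0035, edgeR in each case). PFKM took 35.1% and 35.8% of the summed FPKM of the 3 subunits in the knockout libraries, against 24.7% and 24.8% in the wild-type libraries. PFKL took 15.9% and 15.8% in the knockout libraries, against 25.9% and 26.1% in the wild-type libraries, while the share of PFKP lay between 48.4% and 49.4% in all 4. The ratio of PFKM to PFKL FPKM was 2.21 and 2.27 in the knockout libraries, against 0.952 and 0.949 in the wild-type libraries. PFKM shares 8.58% of its exonic bases with SENP1 on the opposite strand, whose counts were 1628 and 1464 in the knockout libraries and 1527 and 1598 in the wild-type libraries.

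The bifunctional PFKFB enzymes set the level of fructose 2,6-bisphosphate, the strongest activator of phosphofructokinase. PFKFB4 was at 1.82 and 1.56 FPKM in the knockout libraries, against 1.03 and 0.884 FPKM in the wild-type libraries. It rose by a log2 fold change of 0.83 (SE 0.145, edgeR adjusted p = 0.000388), with 310 and 233 counts in the knockout libraries and 165 and 147 in the wild-type libraries. In limma on log2(FPKM + 1), where a pseudocount shrinks the change of low genes, the value was 0.46. PFKFB3, a hypoxia-inducible isoform with strong kinase activity, was at 3.25 and 3.23 FPKM in the knockout libraries and 3.66 and 3.63 FPKM in the wild-type libraries, apart but not past the threshold (log2 fold change -0.17, edgeR adjusted p = 0.132). PFKFB2, the heart isoform, overlapped between the groups, at 1.76 and 1.71 FPKM in the knockout libraries and 1.50 and 1.76 FPKM in the wild-type libraries. PFKFB4 took 26.7% and 24.0% of the summed PFKFB FPKM in the knockout libraries, against 16.6% and 14.1% in the wild-type libraries.

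Of the enzymes from aldolase to pyruvate, the most abundant transcripts fell and PGAM1 rose. GAPDH, which oxidises glyceraldehyde 3-phosphate and is often used as a reference gene, was at 1125.6 and 1146.9 FPKM in the knockout libraries, against 1521.1 and 1546.4 FPKM in the wild-type libraries. It fell by 0.43 on the log2 scale (SE 0.0751, edgeR adjusted p = 0.000373). ENO1, the enolase that makes phosphoenolpyruvate, was at 416.1 and 380.1 FPKM in the knockout libraries and 545.7 and 544.2 FPKM in the wild-type libraries, and fell by 0.45 (SE 0.0749, edgeR adjusted p = 0.000255). TPI1, which interconverts the triose phosphates, was at 197.4 and 165.5 FPKM in the knockout libraries and 262.2 and 256.4 FPKM in the wild-type libraries. Its log2 fold change was -0.51 (SE 0.0790, edgeR adjusted p = 0.00014). For these 3 genes the groups lay apart.

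PKM, the pyruvate kinase gene, was at 184.0 and 166.1 FPKM in the knockout libraries and 203.2 and 205.4 FPKM in the wild-type libraries (log2 fold change -0.22, SE 0.0732, edgeR adjusted p = 0.0229). Its call was lost without wild-type replicate 1 (adjusted p = 0.0921), wild-type replicate 2 (0.0992) or knockout replicate 2 (0.101, edgeR in each case). Gene counts cannot separate the PKM1 and PKM2 splice forms. PGAM1, the phosphoglycerate mutase, was at 132.2 and 127.0 FPKM in the knockout libraries and 108.0 and 112.6 FPKM in the wild-type libraries, and rose by a log2 fold change of 0.24 (SE 0.0612, edgeR adjusted p = 0.00589). Without wild-type replicate 1 its adjusted p was 0.0752, and on the TPM scale it came to 0.07 with an adjusted p of 0.453 (edgeR). PGK1, the first ATP-forming step, overlapped between the groups, at 80.4 and 73.4 FPKM in the knockout libraries and 73.3 and 73.8 FPKM in the wild-type libraries.

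Aldolase could not be read with the same confidence. ALDOA, the main aldolase of most cells, was listed at only 2.63 and 2.86 FPKM in the knockout libraries and 2.40 and 2.73 FPKM in the wild-type libraries. The annotation assigns 42.3% of its exonic bases also to AC093512.2 on the same strand, which had 51 and 55 counts in the knockout libraries and 69 and 86 in the wild-type libraries. No source used here says how reads in shared bases were counted, so the level of ALDOA is uncertain. ALDOC, the brain aldolase, had 19 and 35 counts in the knockout libraries and 13 and 15 in the wild-type libraries, too few to pass the filter. After scaling ALDOC was 1.97-fold higher in the knockout (95% exact Clopper-Pearson interval 1.23 to 3.24), with an adjusted p of 0.0501 in edgeR without a filter. Several of these genes also have processed copies elsewhere in the genome: the 62 listed GAPDH copies held 0.34% to 0.493% as many counts as GAPDH itself, the 13 of PGAM1 at most 0.949% and the 4 of TPI1 at most 1.68%.

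Over all 25 glycolysis genes the summed FPKM was 2499.4 and 2393.0 in the knockout libraries, against 3052.3 and 3073.0 in the wild-type libraries. GAPDH made up 45.0% and 47.9% of that sum in the knockout libraries and 49.8% and 50.3% in the wild-type libraries. Without GAPDH the sum was 1373.8 and 1246.1 FPKM in the knockout libraries, against 1531.2 and 1526.6 FPKM in the wild-type libraries. The 8 genes from aldolase to pyruvate, GAPDH among them, summed to 2138.6 and 2062.3 FPKM in the knockout libraries. In the wild-type libraries they summed to 2716.1 and 2741.7 FPKM. The 6 genes from hexokinase to phosphofructokinase summed to 147.4 and 131.4 FPKM in the knockout libraries, a range that holds the 134.1 and 134.6 FPKM of the wild-type libraries. FPKM summed over all genes also differed, at 332752 and 339220 in the knockout libraries and 301778 and 298029 in the wild-type libraries. As a share of that total, the 6 genes took 0.0443% and 0.0387% in the knockout libraries. In the wild-type libraries they took 0.0444% and 0.0452%, so on that scale the overlap was gone, though narrowly for knockout replicate 1. These early genes hold only a small part of the sum over the 25 glycolysis genes, so that sum cannot place the change at later steps.

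**Figure D2:**
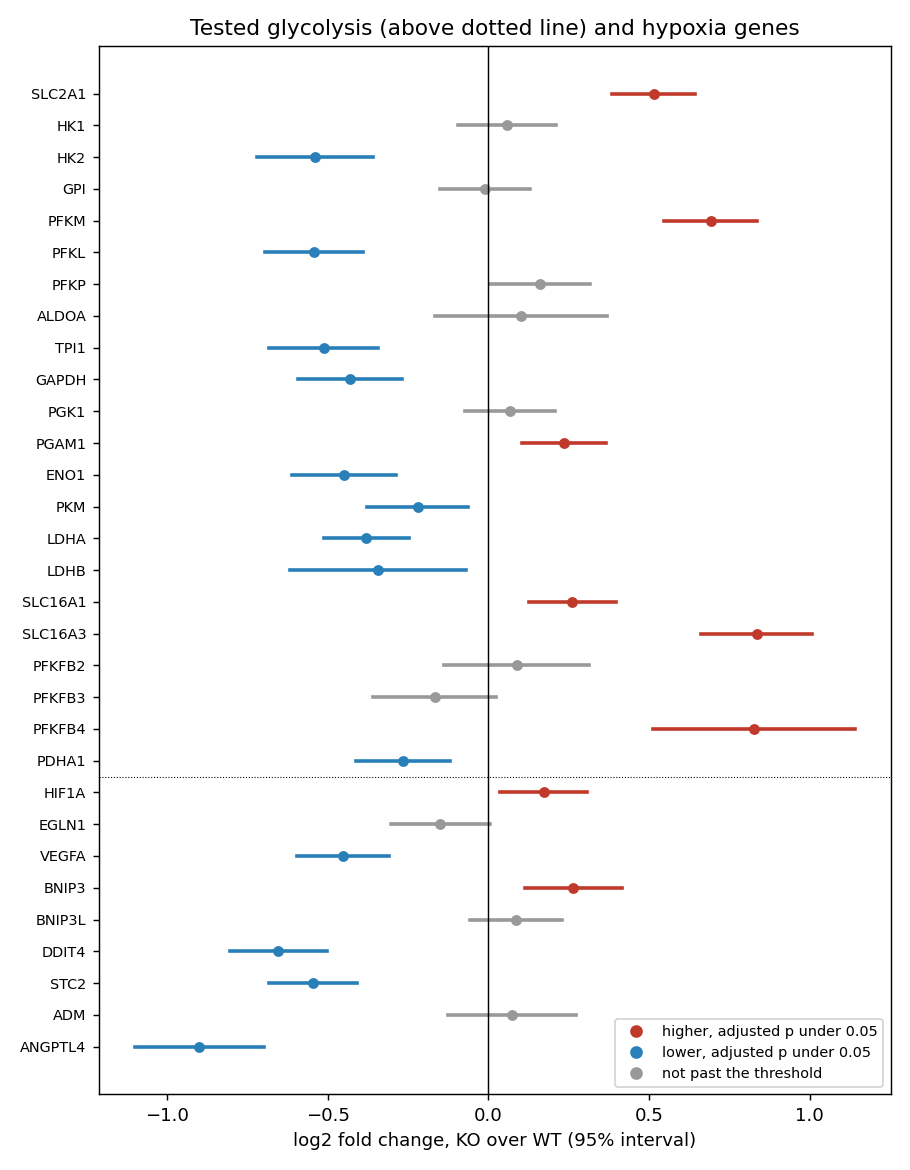
Log2 fold change, knockout over wild type, of the 31 tested genes with 95% intervals from edgeR's quasi-likelihood fit; red genes rose, blue genes fell and grey genes did not pass. The glycolysis genes above the dotted line run from glucose uptake to pyruvate dehydrogenase, with SLC16A3 (0.84) and PFKFB4 (0.83) highest, and ANGPTL4 (-0.90) is the lowest of the hypoxia genes below it.

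At the end of the pathway, the lactate exporters rose and lactate dehydrogenase fell. SLC16A3 encodes MCT4, the hypoxia-inducible lactate exporter of glycolytic cells, and was at 40.9 and 33.6 FPKM in the knockout libraries, against 20.7 and 21.1 FPKM in the wild-type libraries. Its log2 fold change of 0.84 (SE 0.0803, edgeR adjusted p = 2.7e-06) was the highest of the 31. SLC16A3 shares 5.36% of its exonic bases with CSNK1D on the opposite strand, which had 5086 and 3941 counts in the knockout libraries and 4331 and 4620 in the wild-type libraries. SLC16A1 encodes MCT1, which carries lactate both ways, and was at 22.8 and 24.1 FPKM in the knockout libraries and 19.6 FPKM in both wild-type libraries (log2 fold change 0.26, SE 0.0624, edgeR adjusted p = 0.00343). On the TPM scale SLC16A1 came to 0.09 (edgeR adjusted p = 0.27). SLC16A3 took 64.2% and 58.2% of the summed FPKM of both transporters in the knockout libraries, against 51.4% and 51.8% in the wild-type libraries.

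LDHA, the subunit that favours lactate formation, was at 59.0 and 57.7 FPKM in the knockout libraries, against 76.4 and 75.8 FPKM in the wild-type libraries, and fell by 0.38 on the log2 scale (SE 0.0612, edgeR adjusted p = 0.000198). LDHB, the subunit that favours pyruvate, was at 18.7 and 13.2 FPKM in the knockout libraries and 22.0 and 18.6 FPKM in the wild-type libraries, and these ranges overlap. Its log2 fold change was -0.34 (SE 0.127, edgeR adjusted p = 0.0373). That call rested on single libraries: the value was -0.22 without wild-type replicate 1 (adjusted p = 0.268), -0.12 without knockout replicate 2 (0.32) and -0.61 without knockout replicate 1 (0.000114, edgeR in each case). LDHB shares 33.4% of its exonic bases with AC010197.2 on the same strand, which had at most 1 count in any library. LDHA took 76.0% and 81.4% of the summed FPKM of both subunits in the knockout libraries and 77.7% and 80.3% in the wild-type libraries, so the shares overlapped.

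Pyruvate entry into mitochondria was represented by 3 genes. PDHA1, the catalytic alpha subunit of pyruvate dehydrogenase, was at 21.6 and 19.6 FPKM in the knockout libraries and 25.6 and 24.1 FPKM in the wild-type libraries (log2 fold change -0.27, SE 0.0682, edgeR adjusted p = 0.00551). Without wild-type replicate 1 the adjusted p was 0.0765 in edgeR, and PDHA1 shares 21.3% of its exonic bases with MAP3K15 on the opposite strand. PDK1 and PDK3, kinases that switch pyruvate dehydrogenase off, stayed near 1 FPKM and were not tested. Their summed counts were 704 and 275 in the knockout libraries and 737 and 241 in the wild-type libraries, ratios of 0.978 for PDK1 (95% exact Clopper-Pearson interval 0.88 to 1.09) and 1.17 for PDK3 (0.979 to 1.39) after scaling. Intervals on counts cover counting error only.

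**Figure D3:**
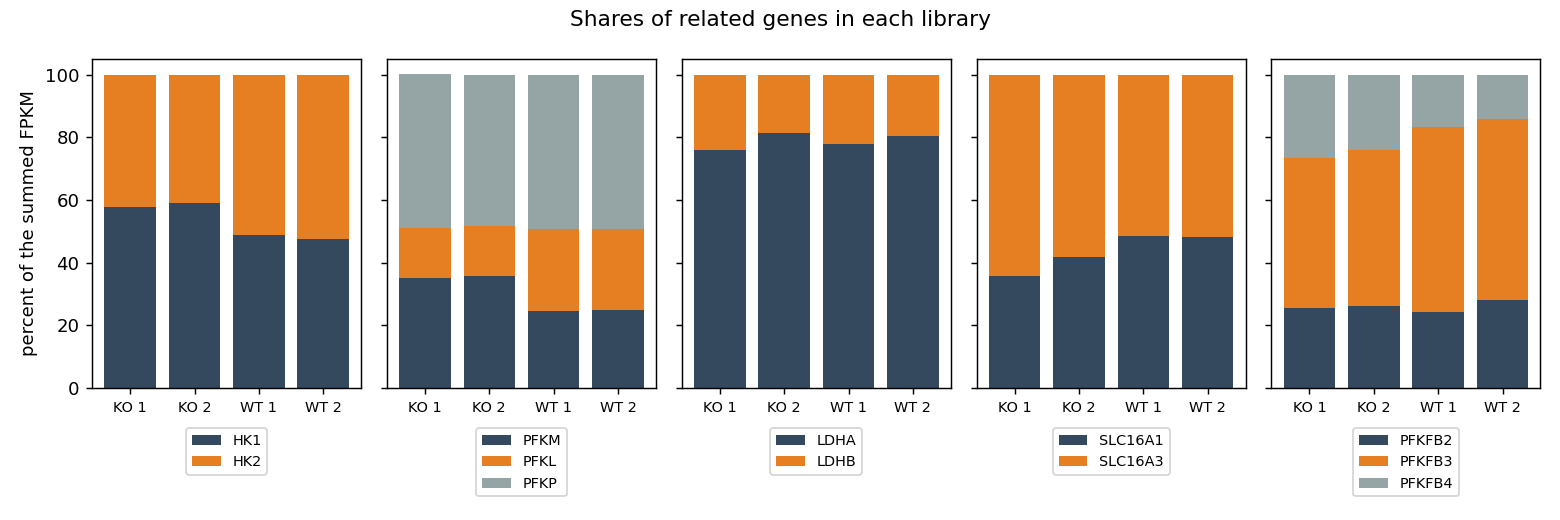
Share of the summed FPKM taken by each of 5 groups of related genes, in knockout replicates 1 and 2 and wild-type replicates 1 and 2; each bar sums to 100 percent. The PFKM share is 35.1% and 35.8% in the knockout libraries and 24.7% and 24.8% in the wild-type libraries, while the LDHA shares of the groups overlap.

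Some of these genes lie in chromosome stretches whose genes moved together. For each gene the median log2 fold change of the 25 tested genes on each side was taken as a local median. GAPDH (chromosome 12, 6533927 to 6538374, hg38) had a local median of -0.38, TPI1 (chromosome 12, 6867119 to 6870948) of -0.30, LDHB (chromosome 12, 21635342 to 21757857) of -0.45 and PFKL (chromosome 21, 44300051 to 44327376) of -0.46. With the local median removed, GAPDH came to -0.05 (edgeR adjusted p = 0.618), PFKL to -0.09 (adjusted p = 0.332) and LDHB to 0.11 (adjusted p = 0.51), while TPI1 stayed past the threshold at -0.21 (adjusted p = 0.0431). HK2 (local median -0.23) came to -0.31 and PFKM (0.32) to 0.37, both still past the threshold. PFKFB4, SLC16A1 and SLC2A1 rose against falling neighbours, with local medians of -0.21, -0.29 and -0.13, and came to 1.04, 0.55 and 0.65. ENO1, LDHA, SLC16A3, STC2 and ANGPTL4 had local medians between 0.00 and 0.04, so their values hardly moved. In all, 15 of the 21 called genes kept their call and direction, where 5022 of the 6581 called among all tested genes did. The other 6 (PFKL, GAPDH, PGAM1, PKM, LDHB and BNIP3) were no longer called, and PFKP, PFKFB3 and EGLN1 came past the threshold. In that fit 7 of the 31 tested genes of the set rose and 11 fell. Of all tested genes 47.4% were then called, 24.1% higher and 23.3% lower. DNA copy number was not measured, and its part in these shifts was not tested.

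**Figure D4:**
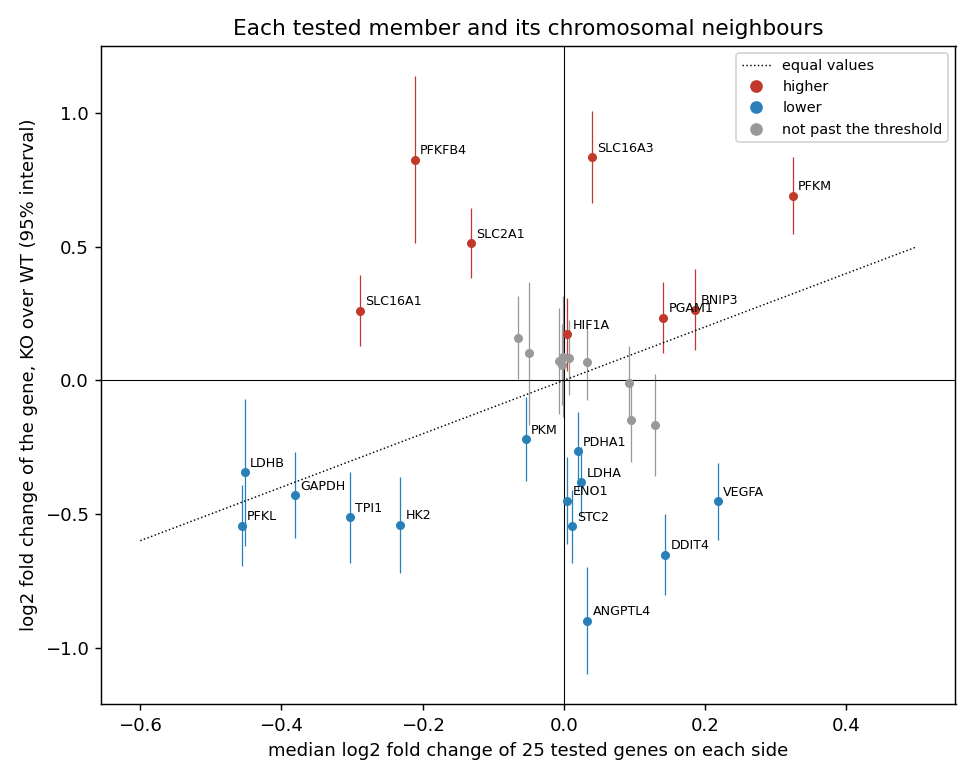
Log2 fold change of each tested gene, knockout over wild type with its 95% interval, against the median log2 fold change of the 25 tested genes on each side; the dotted line marks equal values and only called genes are named. GAPDH, PFKL and LDHB have intervals that reach the dotted line, while SLC16A3, PFKFB4, DDIT4 and ANGPTL4 stand far from it.

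Among the hypoxia regulators HIF1A rose by a small amount, EPAS1 was lower and EGLN1 did not pass. HIF1A, the oxygen-regulated subunit of HIF-1, was at 25.7 and 27.6 FPKM in the knockout libraries and 23.6 and 23.8 FPKM in the wild-type libraries. Its log2 fold change was 0.17 (SE 0.0633, edgeR adjusted p = 0.0369), and the call was lost in 11 of 18 other settings, among them DESeq2 (adjusted p = 0.0638) and the TPM scale (0.00, edgeR adjusted p = 0.963). Without knockout replicate 2 the value was 0.11 (adjusted p = 0.159), and without wild-type replicates 1 and 2 the adjusted p was 0.168 and 0.153 (edgeR). HIF-1 alpha is controlled mainly as a protein, which was not measured. EPAS1, which encodes HIF-2 alpha, was scarce, at 0.388 and 0.376 FPKM in the knockout libraries and 0.842 and 0.739 FPKM in the wild-type libraries. Its 146 summed counts in the knockout libraries, against 308 in the wild-type libraries, were 2.06-fold lower after scaling (95% exact Clopper-Pearson interval 1.69 to 2.53). EGLN1, the main HIF prolyl hydroxylase PHD2, was at 7.34 and 7.62 FPKM in the knockout libraries and 7.99 and 8.64 FPKM in the wild-type libraries (log2 fold change -0.15, edgeR adjusted p = 0.0978). EGLN3, a hydroxylase that hypoxia strongly induces, had 1 count over the knockout libraries and 2 over the wild-type libraries.

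Of the 14 hypoxia genes 9 were tested, and 2 rose, 4 fell and 3 did not pass, and their median log2 fold change was -0.15. Those 6 calls are 66.7% of the 9, where 50.3% of all tested genes were called, 25.1% higher and 25.2% lower. On the TPM scale 0 rose and 5 fell, where 1924 of all 13079 tested genes rose and 5304 fell. The 4 that fell encode secreted or stress-response proteins. ANGPTL4, a secreted inhibitor of lipoprotein lipase, was at 6.04 and 5.53 FPKM in the knockout libraries, against 10.9 and 10.8 FPKM in the wild-type libraries. It fell by 0.90 on the log2 scale (SE 0.0929, edgeR adjusted p = 5.03e-06). DDIT4, also called REDD1, restrains mTORC1 under stress and was at 31.1 and 27.5 FPKM in the knockout libraries and 45.5 and 46.9 FPKM in the wild-type libraries (log2 fold change -0.65, SE 0.0703, edgeR adjusted p = 7.16e-06). DDIT4 shares 41.2% of its exonic bases with DDIT4-AS1 on the opposite strand, which had 0 counts in every library. STC2, a secreted stanniocalcin, was at 13.0 and 12.2 FPKM in the knockout libraries and 18.0 and 19.0 FPKM in the wild-type libraries (log2 fold change -0.55, SE 0.0638, edgeR adjusted p = 1.42e-05). VEGFA, the main driver of blood vessel growth, was at 5.21 and 5.09 FPKM in the knockout libraries and 7.35 and 6.79 FPKM in the wild-type libraries (log2 fold change -0.45, SE 0.0664, edgeR adjusted p = 9.36e-05). In each of the 4 the groups lay apart, and each stayed past the threshold in all 18 other settings. MYC, a regulator of many glycolysis genes, was at 44.4 and 47.5 FPKM in the knockout libraries, against 108.3 and 112.2 FPKM in the wild-type libraries (log2 fold change -1.26, edgeR adjusted p = 1.1e-08). DDIT4, STC2 and VEGFA are also known as targets of ATF4, whose own transcript was at 196.8 and 195.7 FPKM in the knockout libraries and 204.9 and 193.5 FPKM in the wild-type libraries. Whether MYC or ATF4 had a part in any of these changes was not tested.

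The mitophagy receptor gene BNIP3 went the other way. BNIP3 was at 11.4 and 10.8 FPKM in the knockout libraries, against 9.39 and 9.16 FPKM in the wild-type libraries (log2 fold change 0.26, SE 0.0702, edgeR adjusted p = 0.00666). Without wild-type replicate 2 its adjusted p was 0.0691, and on the TPM scale 0.306 (both edgeR). Its 39 listed copies held 3.99% to 5.27% as many counts as BNIP3 itself. BNIP3L, its close relative NIX, was at 18.3 and 17.3 FPKM in the knockout libraries and 17.2 and 16.5 FPKM in the wild-type libraries, apart but not past the threshold (edgeR adjusted p = 0.298). ADM, the vasodilator adrenomedullin and a classical hypoxia target, overlapped between the groups, at 9.24 and 8.39 FPKM in the knockout libraries and 8.79 and 8.02 FPKM in the wild-type libraries.

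CA9, NDRG1 and ANKRD37 were scarce in both groups, at under 1 FPKM in every library. CA9, the carbonic anhydrase widely used to mark hypoxic tumour cells, had 0 and 3 counts in the knockout libraries and 0 and 1 in the wild-type libraries, and 38.5% of its exonic bases are shared with ARHGEF39 on the opposite strand. NDRG1, a stress-induced gene, had 8 and 5 counts in the knockout libraries, against 62 and 64 in the wild-type libraries. After scaling NDRG1 was 9.47-fold lower in the knockout (95% exact Clopper-Pearson interval 5.34 to 18.3), the widest ratio among the genes under the filter that had over 10 counts in each group, at a level of at most 0.241 FPKM. ANKRD37, an ankyrin repeat gene induced by HIF-1, had 26 and 27 counts in the knockout libraries and 43 and 49 in the wild-type libraries, 1.70-fold lower (1.20 to 2.43), and shares 35.2% of its exonic bases with UFSP2 on the opposite strand. In the fit without a filter the adjusted p was 1.54e-16 for NDRG1, 1.57e-07 for EPAS1 and 0.0411 for ANKRD37 (edgeR's quasi-likelihood test over 30992 genes). The authors' deposited table gives ANKRD37 an adjusted p of 0.262 and does not call ALDOC either at the same threshold.

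HIF binds DNA at the short motifs ACGTG and GCGTG, and MYC with its partner MAX at CACGTG, which holds ACGTG on both strands. To show where these letters stand, promoter windows of 300 bases, from 250 before to 50 after the start, were read from RefSeq (GRCh38.p14) for 34 of the 39 genes. The 7 windows below belong to genes that kept their call in each of the 18 other settings that tested them: those with a single listed start, and for LDHA the start whose window holds ACGTG. They run 5′ to 3′ on the gene's strand, and capitals mark ACGTG or GCGTG read on either strand. SLC2A1 and PFKFB4 rose, and the other 5 fell.
SLC2A1: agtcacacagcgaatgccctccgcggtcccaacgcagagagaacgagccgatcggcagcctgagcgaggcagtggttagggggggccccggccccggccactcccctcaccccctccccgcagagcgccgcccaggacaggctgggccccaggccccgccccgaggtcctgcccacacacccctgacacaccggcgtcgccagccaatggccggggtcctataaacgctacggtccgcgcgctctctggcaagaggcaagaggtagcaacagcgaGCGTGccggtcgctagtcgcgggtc
PFKFB4: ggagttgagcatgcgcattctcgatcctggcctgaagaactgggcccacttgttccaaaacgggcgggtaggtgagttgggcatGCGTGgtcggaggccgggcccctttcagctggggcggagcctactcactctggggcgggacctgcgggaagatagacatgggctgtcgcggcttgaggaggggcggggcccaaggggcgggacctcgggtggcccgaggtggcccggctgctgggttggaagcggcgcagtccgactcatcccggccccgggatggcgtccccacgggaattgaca
ENO1: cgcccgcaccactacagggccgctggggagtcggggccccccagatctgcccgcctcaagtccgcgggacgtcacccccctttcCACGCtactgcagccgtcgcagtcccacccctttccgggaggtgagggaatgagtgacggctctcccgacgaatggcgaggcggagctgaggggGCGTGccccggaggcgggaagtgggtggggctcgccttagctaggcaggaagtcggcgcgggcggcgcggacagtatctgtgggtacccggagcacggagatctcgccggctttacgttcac
STC2: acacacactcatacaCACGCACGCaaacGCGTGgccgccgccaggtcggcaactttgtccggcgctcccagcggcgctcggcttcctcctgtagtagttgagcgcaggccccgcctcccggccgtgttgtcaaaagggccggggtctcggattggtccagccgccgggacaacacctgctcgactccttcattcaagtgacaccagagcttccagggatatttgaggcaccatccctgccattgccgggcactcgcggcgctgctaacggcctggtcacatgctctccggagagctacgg
DDIT4: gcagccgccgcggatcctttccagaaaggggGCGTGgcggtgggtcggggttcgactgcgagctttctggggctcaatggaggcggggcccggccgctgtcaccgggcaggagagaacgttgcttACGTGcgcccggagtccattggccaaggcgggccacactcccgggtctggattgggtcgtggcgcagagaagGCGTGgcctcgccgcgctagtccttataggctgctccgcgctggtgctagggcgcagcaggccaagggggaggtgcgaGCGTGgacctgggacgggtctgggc
LDHA: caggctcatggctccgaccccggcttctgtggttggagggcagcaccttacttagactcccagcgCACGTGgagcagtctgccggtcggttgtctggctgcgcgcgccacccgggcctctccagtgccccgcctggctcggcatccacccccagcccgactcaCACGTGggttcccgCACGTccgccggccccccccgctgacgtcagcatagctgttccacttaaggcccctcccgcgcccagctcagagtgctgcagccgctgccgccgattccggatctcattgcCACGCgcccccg
ANGPTL4: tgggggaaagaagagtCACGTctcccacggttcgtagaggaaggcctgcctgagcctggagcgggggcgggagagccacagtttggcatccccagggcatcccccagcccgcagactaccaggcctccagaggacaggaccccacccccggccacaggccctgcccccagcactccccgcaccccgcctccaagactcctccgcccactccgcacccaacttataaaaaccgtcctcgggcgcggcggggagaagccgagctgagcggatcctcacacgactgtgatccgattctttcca
The SLC2A1 window is chr1:42958819-42959118 (minus strand), PFKFB4 chr3:48556754-48557053 (minus), ENO1 chr1:8878637-8878936 (minus), STC2 chr5:173328365-173328664 (minus), DDIT4 chr10:72273674-72273973 (plus), LDHA chr11:18394313-18394612 (plus) and ANGPTL4 chr19:8363905-8364204 (plus). The LDHA window holds 2 copies of CACGTG, and the windows of DDIT4 and STC2 hold 3 GCGTG each. Over both strands, ACGTG or GCGTG stood in 48.4% of all 35116 RefSeq windows, in 14 of 15 windows of the genes that fell (12 genes, 93.3%) and in 9 of 18 windows of the genes that rose (7 genes). The same letters stood in 13 of 20 windows of the genes that did not pass (65.0%), in 6 of 8 of the untested genes and in 68.9% of all 61 windows of the set. CACGTG stood in 7.26% of all windows, in 3 of the 15 and in 1 of the 18. Windows of 1 gene can overlap, no test was made, and a match is a description of the letters, not a bound site.

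Genes outside the set that share these pathways or their family names also went both ways. Not every gene of the first list acts in glycolysis, as with the phosphatase PGAM5. Of 11 tested genes among 27 other glycolysis and lactate genes, 3 rose, 5 fell and 3 did not pass, with a median log2 fold change of -0.13. Those calls are 72.7% of the 11, where 50.3% of all tested genes were called, 25.1% higher and 25.2% lower. On the TPM scale 1924 of all 13079 tested genes rose and 5304 fell. SLC2A3, the high-affinity glucose transporter GLUT3, was at 12.9 and 13.7 FPKM in the knockout libraries, against 19.0 and 19.5 FPKM in the wild-type libraries (log2 fold change -0.53, edgeR adjusted p = 1.81e-05), opposite to SLC2A1. SLC2A3 lies on chromosome 12 with the same local median as GAPDH, -0.38, and came to an adjusted p of 0.0706 with it removed (edgeR). The muscle enolase ENO3 fell to 1.81 and 1.27 FPKM in the knockout libraries, against 3.17 and 3.04 FPKM in the wild-type libraries (edgeR adjusted p = 0.000123). The mitochondrial phosphatase PGAM5 fell (-0.53 ± 0.0850) and BPGM, which makes 2,3-bisphosphoglycerate, rose (0.44 ± 0.109, log2 fold change ± SE), though not past the threshold on the TPM scale (0.27, edgeR adjusted p = 0.0519). Without wild-type replicate 1 the calls of this list were 1 higher and 3 lower, and on the TPM scale 1 higher and 6 lower.

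For pyruvate use in mitochondria, 12 of 13 listed genes were tested, and 3 rose, 4 fell and 5 did not pass. Those calls are 58.3% of the 12, where 50.3% of all tested genes were called, 25.1% higher and 25.2% lower. On the TPM scale 1924 of all 13079 tested genes rose and 5304 fell. The dehydrogenase subunit DLD (-0.49 ± 0.0625) and the pyruvate dehydrogenase phosphatase PDP1 (-0.44 ± 0.0610) fell along with PDHA1. Pyruvate carboxylase, PC (0.67 ± 0.0919), and citrate synthase, CS (0.38 ± 0.0636), rose, and CS came to 0.02 with the local median removed (edgeR adjusted p = 0.843). Without wild-type replicate 2 the calls were 2 higher and 2 lower, and on the TPM scale 2 higher and 7 lower.

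Of 15 tested genes of the HIF pathway core 1 rose, 8 fell and 6 did not pass, with a median of -0.24 beside 0.00 over all tested genes, of which 25.1% rose and 25.2% fell. VHL, the ubiquitin ligase subunit that captures hydroxylated HIF alpha, was at 14.6 and 14.1 FPKM in the knockout libraries and 17.5 and 19.1 FPKM in the wild-type libraries (log2 fold change -0.35, edgeR adjusted p = 0.000932). Its partner elongin C, ELOC, fell by 0.44 (SE 0.0757), the ligase SIAH1 by 0.54 (SE 0.117) and the HIF antagonist CITED2 by 0.24 (SE 0.0633). On the TPM scale 0 rose and 9 fell, where 1924 of all 13079 tested genes rose and 5304 fell. With the local median removed 1 rose and 3 fell in this list, where 24.1% of all tested genes rose and 23.3% fell. In that fit VHL (-0.13, adjusted p = 0.137), SIAH1 (-0.25, 0.0981) and CITED2 (-0.03, 0.679) were no longer called (edgeR).

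In a wider list of 40 hypoxia-inducible genes more rose than fell, though not on the TPM scale, where 10 rose and 12 fell: of 31 tested, 14 rose, 6 fell and 11 did not pass, with a median of 0.19. Of all tested genes 25.1% rose and 25.2% fell, and on the TPM scale 26.6% of all calls were higher. The difference from the hypoxia genes of the set was not tested. A gene among those that fell passed the filter only through the wild-type libraries, at 1.63 and 2.08 FPKM. It was at 0.66 and 0.775 FPKM in the knockout libraries, so its own difference let it be counted. The collagen-modifying enzymes LOXL2 (0.83 ± 0.0611) and PLOD2 (0.91 ± 0.0866, log2 fold change ± SE) rose, and the circadian repressor BHLHE41 fell (-1.35 ± 0.107). BHLHE41 came to -0.90 with its local median of -0.45 removed. Without wild-type replicate 1 the calls were 10 higher and 3 lower.

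**Figure D5:**
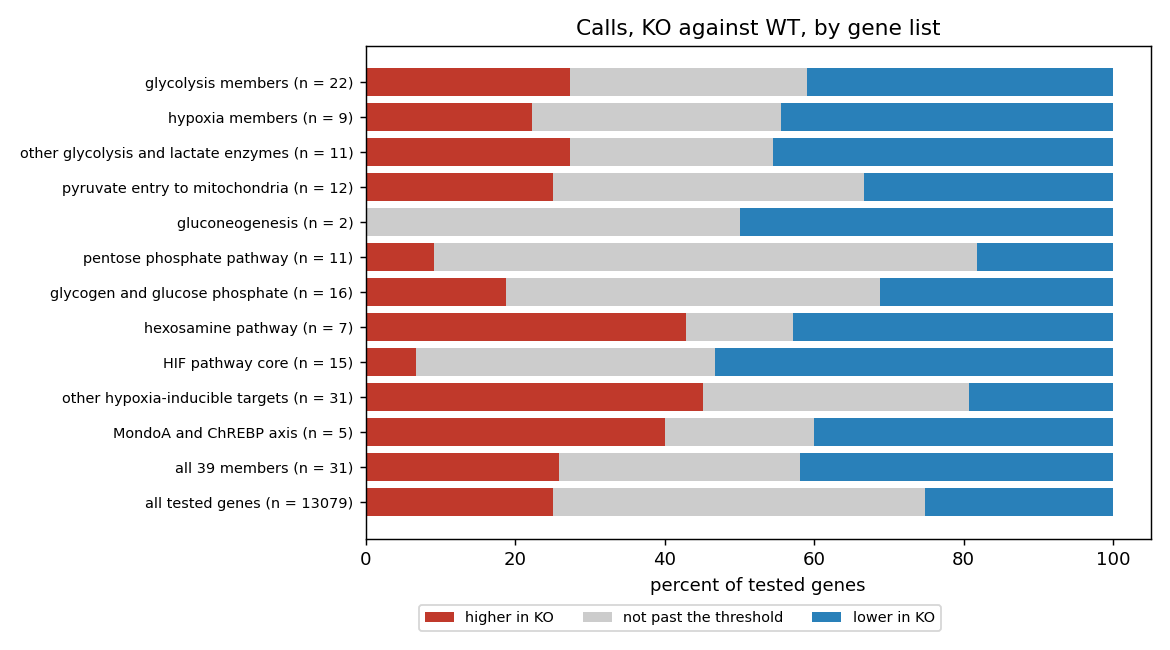
Percent of tested genes that were higher in the knockout (red), did not pass the threshold (grey) or were lower in the knockout (blue), for each gene list and for all tested genes; n is the number of tested genes. The set of 39 has 8 higher and 13 lower of 31, and the wider list of hypoxia-inducible genes 14 higher and 6 lower of 31 (10 and 12 on the TPM scale).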

How the data were processed

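RNA was sequenced from 2 knockout and 2 wild-type H1299 libraries, made from total RNA with an Illumina TruSeq kit per the labels. The submitters' processing notes name HISAT2 2.0.5 and the build hg38; no source used here names the read counter, the annotation release or whether strand was used. The authors deposited raw counts per gene, and FPKM values made from them with the gene length and an effective library size of 0.965 to 1.01 of the total count. FPKM divides by the length of all exons of a gene, so levels of different genes depend on that length. The deposited group means of scaled counts (a normalized signal, per the file headers) were not used. The log2 fold change of knockout over wild type in the authors' deposited table, its p-value and adjusted p-value, made with a tool the headers do not name, were used only for comparison.

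Libraries were grouped by their titles. The deposited counts went into edgeR 4.0.16 (R 4.3.3; TMM factors 0.978 to 1.02, quasi-likelihood test, two-sided, no covariates, Benjamini-Hochberg adjustment over the 13079 genes that reached 1 FPKM in 2 or more libraries, threshold 0.05). Standard errors come from the same fit. An exact permutation of 2 against 2 libraries cannot go below p = 0.333 and was not used. Genes under the filter are given as ratios of summed counts, scaled by effective library size, with 95% exact Clopper-Pearson intervals. Alternatives were other filters and scalings, DESeq2 1.42.0, limma 3.58.1 on log2 FPKM with pseudocounts of 1 or 0.1, removal of the local median, each library left out and a replicate block. On data simulated for knockout against wild type over 13079 genes, edgeR recovered 70% of changes of 0.5 and 91% of changes of 1 on the log2 scale. DESeq2 recovered 53% and 87% of them, and limma with a pseudocount of 1 recovered 28% and 78%. Far fewer genes were changed in the simulation than were called in the data, so these shares do not give the power in the data. Exon overlaps come from GENCODE release 29, in which 100% of the table's gene identifiers have identical coordinates.

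The members and lists were chosen with earlier results of these data known. Named genes are the members, TTC28, MYC, ATF4 (the last 2 added after values were seen), the fixed cell markers, genes sharing exons with a member and, for each other list, up to 4 tested genes with the smallest p; 2 genes these rules name are not reported here.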

Additional observations from a re-analysis of the deposited data

How the results depend on the processing

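Of the 21 called genes of the set, 12 kept their call in each of the 18 other settings (17 for PFKFB4, which a filter of 5 FPKM removed) and 9 did not (PFKL, GAPDH, PGAM1, PKM, LDHB, SLC16A1, PDHA1, HIF1A and BNIP3). The number called lay between 18 and 23 over filters, scalings and tools, where 19 were called in DESeq2, and from 16 to 21 with 1 library left out (11 to 15 of the glycolysis and 4 to 6 of the hypoxia genes; 4854 to 6456 of all genes). Over all genes, the reported fit called 6581 (50.3% of those tested), and 4346 with a filter of 5 FPKM, where 7490 genes were tested. Of the same 13079 genes, DESeq2 called 42.3%, edgeR on the TPM scale 7228 genes and limma with a pseudocount of 1 5653 genes. LDHB turned from -0.34 to 0.11 with the local median removed; the cause was not tested. With a filter of 5 FPKM the calls numbered 5 of other glycolysis and lactate genes (8 as reported), 5 of glycogen genes (8) and 13 of wider hypoxia-inducible genes (20), with fewer genes tested. Glycogen genes had 5 calls in DESeq2 and 5 in limma with either pseudocount. Gluconeogenesis genes had 2 calls (1 as reported) on total counts, on the TPM scale and with the local median removed; pentose phosphate genes 7 on the TPM scale and 5 with the local median removed (3 as reported); HIF core genes 4 with the local median removed (9 as reported). With 1 library left out, calls ranged from 4 to 8 for other glycolysis genes, 4 to 6 for mitochondrial pyruvate use, 1 to 2 for gluconeogenesis, 1 to 3 for pentose phosphate, 4 to 7 for glycogen, 4 to 6 for hexosamine, 6 to 9 for the HIF core, 13 to 18 for wider hypoxia-inducible genes and 3 to 4 for MondoA genes; the lone library of a group is then assumed to vary like the others. Replicate numbers did not pair the libraries (correlation of deviations across genes -0.00144 over 2 pairs); with a replicate block 22 of the 31 were called, PFKP joining them (adjusted p = 0.0286, edgeR), and 7108 of all genes. The authors' deposited table called 19 of the 31 at the same threshold, without LDHB and HIF1A. Depth limits the genes near 1 FPKM: PFKFB4 rests on 147 to 310 counts per library.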

Other observations

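Branches that draw on glycolytic intermediates moved unevenly. In the hexosamine pathway, which turns fructose 6-phosphate into the sugar donor of protein glycosylation, 7 of 7 listed genes were tested, and 3 rose, 3 fell and 1 did not pass. Those calls are 85.7% of the 7, where 50.3% of all tested genes were called, 25.1% higher and 25.2% lower. The 3 that fell are synthesis enzymes, but another synthesis enzyme of the list rose (log2 fold change 0.25, SE 0.0928) and another did not pass. UAP1, which makes UDP-N-acetylglucosamine, was at 47.5 and 49.2 FPKM in the knockout libraries, against 126.8 and 122.2 FPKM in the wild-type libraries, a fall of 1.36 on the log2 scale (SE 0.0635, edgeR adjusted p = 4.9e-09). GNPNAT1 fell by 0.76 (SE 0.0889) and GFPT1, the rate-limiting entry enzyme, by 0.63 (SE 0.0658). OGA, which removes O-GlcNAc from proteins, rose by a log2 fold change of 0.37 (SE 0.0613). The enzyme that adds O-GlcNAc rose too, by 0.22 (SE 0.0857).

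In glycogen metabolism 16 of 17 listed genes were tested, and 3 rose, 5 fell and 8 did not pass. A gene among those that rose passed the filter only through the knockout libraries, at 1.22 and 1.18 FPKM. It was at 0.81 and 0.87 FPKM in the wild-type libraries, so its own difference let it be counted. Those calls are 50% of the 16, where 50.3% of all tested genes were called, 25.1% higher and 25.2% lower. Liver glycogen phosphorylase, PYGL, was at 12.2 and 11.8 FPKM in the knockout libraries, against 21.3 and 20.9 FPKM in the wild-type libraries (log2 fold change -0.81, edgeR adjusted p = 4.83e-07). Muscle-type glycogen synthase, GYS1, rose by a log2 fold change of 0.50 (SE 0.0828), and PYGB, the brain phosphorylase, fell by 0.30 (SE 0.0656). The calls of this list numbered 4 without wild-type replicate 1, 5 without wild-type replicate 2 and 5 without knockout replicate 2.

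Of 11 tested pentose phosphate genes 1 rose, 2 fell and 8 did not pass; RPIA, the ribose 5-phosphate isomerase, fell by 0.89 on the log2 scale (edgeR adjusted p = 1.09e-05), and 1 call was left without wild-type replicate 1. Of 5 listed gluconeogenesis genes 2 were tested: PCK2, the mitochondrial phosphoenolpyruvate carboxykinase, fell by 0.61 (SE 0.0619) and G6PC3 was at -0.15 (edgeR adjusted p = 0.167), with 2 falls called without wild-type replicate 2. PCK2 came to -0.25 with its local median of -0.36 removed (edgeR adjusted p = 0.00461). Among the glucose-sensing factors, MLXIPL, which encodes ChREBP, was at 2.24 and 2.12 FPKM in the knockout libraries, against 1.07 and 1.12 FPKM in the wild-type libraries (log2 fold change 1.00, edgeR adjusted p = 5.04e-05), and 2 of 5 tested genes of that list rose and 2 fell. In the reported fit 27.3% of the tested pentose phosphate genes and 80% of the glucose-sensing genes were called. Over all tested genes the share was 50.3%, with 25.1% higher and 25.2% lower. On the TPM scale the calls were 1 higher and 3 lower in the hexosamine list, 1 and 8 in the glycogen list, 0 and 7 in the pentose phosphate list and 1 and 2 in the glucose-sensing list. On that scale 1924 of all 13079 tested genes rose and 5304 fell.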
